A study of Mus musculus with 18 samples.

Results

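Small RNAs that the count table annotates as piRNAs were described in 3 cell fractions of the mouse brain. A piRNA-annotated RNA was included when 6 or more of the 18 libraries held at least 5 counts of it, and 115 of the 54865 piRNA entries did so, out of 203513 features in the table. The counts themselves chose these 115 RNAs, so their abundance is given as a description. Of the other piRNA entries, 1026 had at least 1 count and 53724 had none, and the 115 RNAs held 3027114 of the 3033913 piRNA counts (99.8%). The 7 RNAs with 5 counts in exactly 6 libraries had totals of 45 to 129 counts, and the 10 entries left out with exactly 5 such libraries had totals of 66 to 113. At the other end, 68 RNAs reached 5 counts in all 18 libraries.

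The libraries came from 10-month-old C57BL/6 mice that were either wild type (WT) or homozygous for a repeat of CAG100 knocked into Atxn2 (Atxn2-CAG100-knockin, KIN), which models spinocerebellar ataxia type 2. The methods describe a sequence of bead separations, in which the microglia of a single dissociated brain were bound first by CD11b beads, the astrocytes next by ACSA-2 beads, and the neurons were what flowed through once other cells and CD31-positive endothelium had been held back. Each of the 6 groups (astrocytes, microglia or neurons, WT or KIN) had 3 libraries, and the labels do not say whether a replicate number marks one brain. Library totals ran from 3144427 to 3980687 counts in astrocytes, from 3148211 to 4316748 in microglia, and from 1211118 to 2427384 in neurons. Equal amounts of RNA went into the libraries, so that values are relative, and fewer cells of a type cannot be told apart from less RNA per cell.

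Several properties of the libraries bear on what follows. The myeloid mmu-miR-142a-3p averaged 2480 CPM (counts per 1000000 of the library total) in WT microglia against 7.88 in WT astrocytes, and mmu-miR-223-3p averaged 412 against 2.88. The neural mmu-miR-9-5p was highest in WT astrocytes at 6300 CPM. The neuronal mmu-miR-124-3p did not mark the neuronal fraction, with 103 CPM there and 1540 CPM in WT astrocytes, a fraction in which mmu-miR-219a-2-3p, typical of oligodendrocytes, averaged 493 CPM. The methods speak of 2 male pairs and 1 female pair of mice, whereas Xist had 33, 102 and 25 counts in WT replicates 1, 2 and 3 and 5, 47 and 83 in KIN replicates 1, 2 and 3 of the astrocytes. There the Y-linked Ddx3y had 4, 0 and 2 counts in WT and 1, 0 and 0 in KIN. Uty had 4, 2 and 6 and 3, 0 and 0, and Eif2s3y 5, 1 and 2 and 2, 0 and 0. Kdm5d had 13, 5 and 8 and 1, 4 and 3. The labels give no sex per library, and its part in the genotype comparisons was not tested. The features with at least 1 count numbered 32670, 27657 and 32839 in the WT astrocyte libraries and 21874 to 23544 in the KIN ones. Microglia had 27713, 17884 and 29541 in WT and 13941 to 20324 in KIN, so that WT replicate 2 lay below the other WT libraries in both glial fractions.

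Genuine piRNAs are short RNAs bound by PIWI proteins, which silence transposable elements, above all in germ cells. They are usually a little longer than miRNAs and tend to begin with uridine, and those made by the ping-pong cycle carry adenosine at the tenth base. Databases of piRNA sequences were compiled in large part from sequenced small RNAs of testis and ovary. A fragment of an abundant structural RNA with the length of a piRNA can therefore carry a piRNA name. The structural RNAs met below are snoRNAs, which guide modification of ribosomal RNA, snRNAs, which form the spliceosome, 18S ribosomal RNA, the Y1 RNA, the 7SL RNA of the signal recognition particle, and 7SK RNA, which regulates transcription elongation.

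The sequences below, written as DNA letters from 5′ to 3′, show which RNAs the names stand for. The first set lies in box C/D snoRNAs. Capitals mark the letters CTGA, as in the box D, and TGATGA, a form of the box C, wherever they occur.
mmu-piR-22375: CTGAaatgaagagaatactcttgCTGAtc
mmu-piR-58792: tggaaaggatgaacgaacttggcCTGAcc
mmu-piR-60414: tgccaaTGATGAcaccacactaaCTGAgc
mmu-piR-11876: caccaagatgagtggtgcaaatCTGAtc
In the build GRCm39, mmu-piR-22375 lay at chr16:22927739-22927767 on the plus strand, in Snord2 within the gene Eif4a2. It began at base 37 of the 69 bases of Snord2, so its first CTGA lay well inside Snord2 and is a match of letters only. mmu-piR-58792 lay at chr2:130119936-130119964 (plus), beginning at base 1 of Snord57 within Nop56, and mmu-piR-60414 at chr5:108052420-108052448 (plus), in Snord21 within Rpl5. mmu-piR-11876 lay at chr2:144107901-144107928 (minus), in Snord17 in an intron of Snx5.

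The second set comes from other structural RNAs, with capitals on the first and the tenth base, where piRNAs favour T and, in the ping-pong cycle, A.
mmu-piR-67265: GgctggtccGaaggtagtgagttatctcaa
mmu-piR-67196: GtaggtgaaCctgcggaaggatcatta
mmu-piR-68887: AcgggaaacCtcacccggcccggacac
mmu-piR-57305: TggataccgCagctaggaataatggaa
mmu-piR-44760: TagtgcgctAtgccgatcgggtgtccgcac
mmu-piR-59557: TgcgctatgCcgatcgggtgtccgcactaa
mmu-piR-67881: CtatgccgaTcgggtgtccgcactaagtt
mmu-piR-67265 lay at chr6:47765085-47765114 (minus) and is the first part of the Y1 RNA, Rny1. The next 3 lay in the exon of the 18S RNA gene Rn18s-rs5 on chromosome 17, plus strand. mmu-piR-57305 began at its base 851 (chr17:40158094-40158120), mmu-piR-68887 at base 1260 (chr17:40158503-40158529) and mmu-piR-67196 at base 1823 (chr17:40159066-40159092), ending at the last of the 1849 bases. The remaining 3 overlap each other in the 7SL RNA Rn7s1, beginning at its bases 87, 90 and 94, and had 3 genome copies each.

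The third set had no annotated small RNA at the matching positions, with the same bases in capitals.
mmu-piR-69027: AaagtcagcCctcgacacaagggtttgt
mmu-piR-67239: GggttaaggCgcccgatgccgacgctc
mmu-piR-25838: TccagtgcgGtaacgcgaccgatccc
mmu-piR-68126: CcgtggcgcAatgaaggtgaagggc
mmu-piR-65496: TcgttgcggAtggccagctgcaggtggcgc
The annotation used names no exon of 28S rRNA, so these sequences could not be checked against it. A gene at a matching position need not be their source. mmu-piR-69027 had 4 genome copies and had 5 other RNAs of the set within 6000 bases. mmu-piR-67239 lay at chr16:35801983-35802009 (plus), in an intron of Kpna1 and opposite an intron of Gm15564. mmu-piR-25838 lay at chr11:108902708-108902733 (minus), opposite an intron of the lncRNA Gm36876, and mmu-piR-68126 at chr16:57211963-57211987 (minus), in an intron of Cmss1 and opposite an intron of Filip1l. mmu-piR-65496 stands here although a hairpin model, Gm54450, holds it, because the sequence, with 18 genome copies, was found on the opposite strand of transcripts of 18 H2 histone genes and pseudogenes, such as H2ac4 and H2ac6. It was found on the same strand of 7 genes, among them H2bc3. Strand was not used in counting, so that reads of the histone mRNAs and reads of this sequence cannot be told apart.

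The fourth set lies in miRNA hairpins, with capitals on bases 2 to 8 of the mature miRNA, the seed that pairs with targets.
mmu-piR-68767: aGCTGGTGttgtgaatcaggccgtt
mmu-piR-13530: cCTCCCACacccaaggcttgca
mmu-piR-7972: gCACTGAGatgggagtggtgtaa
In the RefSeq table of mature miRNAs, mmu-piR-13530 was identical to mmu-miR-532-3p. mmu-piR-68767 held the whole of mmu-miR-138-5p and mmu-piR-7972 that of mmu-miR-674-5p. None of the 3 seeds was shared with another. mmu-piR-68767 lay in Mir138-1 at chr9:122511963-122511987 (plus). The others lay in Mir532 in an intron of Clcn5 at chrX:7114658-7114679 (minus), and in Mir674 in an intron of Spred1 at chr2:117015632-117015654 (plus).

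Most of the signal came from a few structural RNA fragments. The table gave a sequence for 95 of the 115 RNAs, and all 95 were found without mismatch in GRCm39, 45 of them at 1 position. Of the 95, 51 (53.7%) lay in an annotated small RNA and these held 82.0% of the counts of the 95. The 13 snoRNA fragments held 28.9% of the counts of all 115 RNAs, the 8 snRNA fragments 23%, the 14 rRNA fragments (12 of them in Rn18s-rs5) 4.58%, and 5 fragments of Rny1, Rn7s1 and Rn7sk 2.26%. The 9 RNAs in miRNA hairpins held 0.526%, and 1 RNA each lay in the mitochondrial tRNA mt-Te and in a scaRNA, a guide RNA of the Cajal body. The RNA in the scaRNA, mmu-piR-14565, also lay in Mir1839 on the same strand and shared at least 18 bases with mmu-miR-1839-5p. A further 25 RNAs (12.9% of counts) had no annotated small RNA at their positions. Of those 25, 19 lay within 6000 bases of another one or of an 18S fragment, and the annotation used names no exon of 28S rRNA. The 20 RNAs of 31 or 32 bases (27.7%) had no sequence used here and could not be placed. Overlapping sequences were frequent, with 26 RNAs falling into 11 loci that held 2 to 4 of them, so the 115 names stand for 100 loci.

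Highly repeated sequence, the form that transposable elements take in the genome, was rare among the counts. The 19 RNAs with at least 100 genome copies (129 to 1650720 copies, median 14006) held 0.105% of the counts. Of these, 84.2% began with T, 63.2% had A at base 10 and 47.4% had both. In the 47107 piRNA entries with a sequence, 90% began with T, 30.8% had A at base 10 and 27.2% had both. Of the 95 sequenced RNAs described here, 52 (54.7%) began with T, 28.4% had A at base 10 and 17.9% had both. Weighted by counts, 57.2% began with T and 9.89% had both. First-base T was found in 87.5% of snRNA fragments, 53.8% of snoRNA fragments, 42.9% of rRNA fragments, 40.0% of RNAs without annotated small RNA and 33.3% of those in miRNA hairpins. The mean GC content was 54.2% for the 95 and 44.1% for all sequenced piRNA entries. CTGA was present in 11 of the 13 snoRNA fragments, in 10 of them within the last 7 bases, and TGATGA in 5. Each snoRNA fragment had one or the other, while CTGA occurred in 14.2% and TGATGA in 1.82% of all sequenced piRNA entries. Motifs were searched on the strand of the piRNA entry, TGATGA and CTGA share the letters TGA but were counted separately, and a match is a match of letters only.

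The machinery of piRNAs was hardly seen. Of 25 pathway genes, 16 had at least 1 count, with 114 counts over all 18 libraries and all their transcripts. Piwil1, Piwil2 and Piwil4, which encode the mouse PIWI proteins, had 3, 1 and 3 counts. None of the 25 had a transcript with enough counts to be tested between KIN and WT in any fraction. These libraries hold fragments of mRNA and not whole mRNA, which limits what such counts show about expression.

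As a share of the library, the 115 RNAs made up 4.90% ± 0.083 of counts in WT astrocytes (SD, n = 3; 4.84 to 4.99%) and 4.42% ± 0.0424 in KIN astrocytes (4.38 to 4.46%). In microglia the share was 6.53% ± 0.499 in WT (5.95 to 6.82%) and 5.84% ± 0.627 in KIN (5.11 to 6.20%), and in neurons it was 5.27% ± 0.399 (4.91 to 5.70%) and 5.64% ± 0.245 (5.42 to 5.90%). The WT and KIN ranges lay apart in astrocytes and overlapped in microglia and in neurons. The snoRNA fragments averaged 13800 ± 618 CPM in WT astrocytes, 15800 ± 2180 in WT microglia and 20200 ± 2890 in WT neurons. The rRNA fragments averaged 1470 ± 221, 2890 ± 867 and 3940 ± 435 CPM in the same order. The fragments of Y1, 7SL and 7SK RNA averaged 2800 ± 581, 329 ± 39.2 and 1680 ± 1190 CPM, and that order between the glial fractions came from the Y1 fragment mmu-piR-67265 alone, which averaged 2700 CPM in WT astrocytes and 169 in WT microglia. The other 4 averaged 4.26 to 35 CPM in WT astrocytes and 9.72 to 53.9 in WT microglia, each higher in microglia. The 20 RNAs of 31 or 32 bases were highest in WT microglia, at 22100 ± 2690 CPM, against 12200 ± 11.2 in WT astrocytes and 7460 ± 810 in WT neurons.

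**Figure D1:**
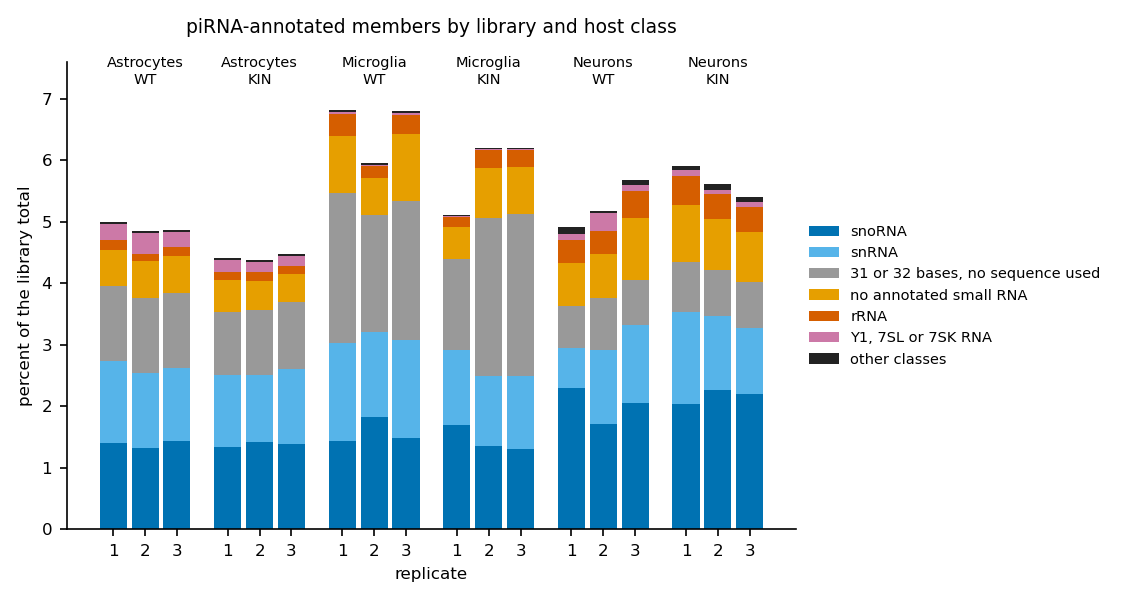
Stacked bars give the percent of each library's total count that the 115 piRNA-annotated RNAs took, split by the kind of RNA that holds their sequence, for the 3 replicates of each of the 6 groups. snoRNA and snRNA fragments and the RNAs of 31 or 32 bases make up most of every bar, and the bars run from 4.38% to 6.82%.

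The 8 most abundant RNAs held 73.2% of the counts, and the first of them 15.7%. mmu-piR-68681, of 32 bases and without a sequence here, had 7650, 7170 and 7880 CPM in WT astrocytes, 13700, 12400 and 13000 in WT microglia and 3030, 3020 and 2810 in WT neurons. The 3 fractions did not overlap in WT, with microglia highest and neurons lowest. mmu-piR-23501, also of 32 bases, had 2370, 2970 and 2300 CPM in WT astrocytes, 6720, 3270 and 6100 in WT microglia and 425, 2620 and 767 in WT neurons, so that neuronal replicate 2 lay within the astrocyte range.

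The 3 abundant snoRNA fragments varied less. mmu-piR-22375 (Snord2) had 5790, 5610 and 5940 CPM in WT astrocytes, 6110, 7910 and 6430 in WT microglia and 7440, 5890 and 6520 in WT neurons. Neurons overlapped both other fractions, while microglia lay above astrocytes. mmu-piR-58792 (Snord57) had 4010, 3600 and 4240 CPM in WT astrocytes, 2860, 4820 and 3040 in WT microglia and 9300, 7320 and 8830 in WT neurons, where all 3 libraries lay above every glial WT library. mmu-piR-60414 (Snord21) had 3220, 2850 and 3160 CPM in WT astrocytes, 3950, 4260 and 3860 in WT microglia and 5080, 3110 and 4250 in WT neurons, with neurons overlapping both other fractions.

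Of the remaining abundant RNAs, mmu-piR-50001, which matched the U5 snRNA Rnu5g and 7 genome positions, had 6360, 5810 and 5920 CPM in WT astrocytes, 8100, 6100 and 7640 in WT microglia and 2500, 5010 and 5550 in WT neurons. mmu-piR-61756, which matched the U1 snRNA Rnu1a1 and 25 genome positions, had 2140, 2000 and 1910 CPM in WT astrocytes, 3040, 3010 and 2980 in WT microglia and 1270, 3470 and 2960 in WT neurons. Both snRNA fragments were lowest in neuronal WT replicate 1, the library with the fewest counts. mmu-piR-69027 had 3660, 4030 and 3640 CPM in WT astrocytes, 6980, 4630 and 8500 in WT microglia and 1970, 3660 and 5140 in WT neurons, with the astrocyte range inside the neuronal one.

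**Figure D2:**
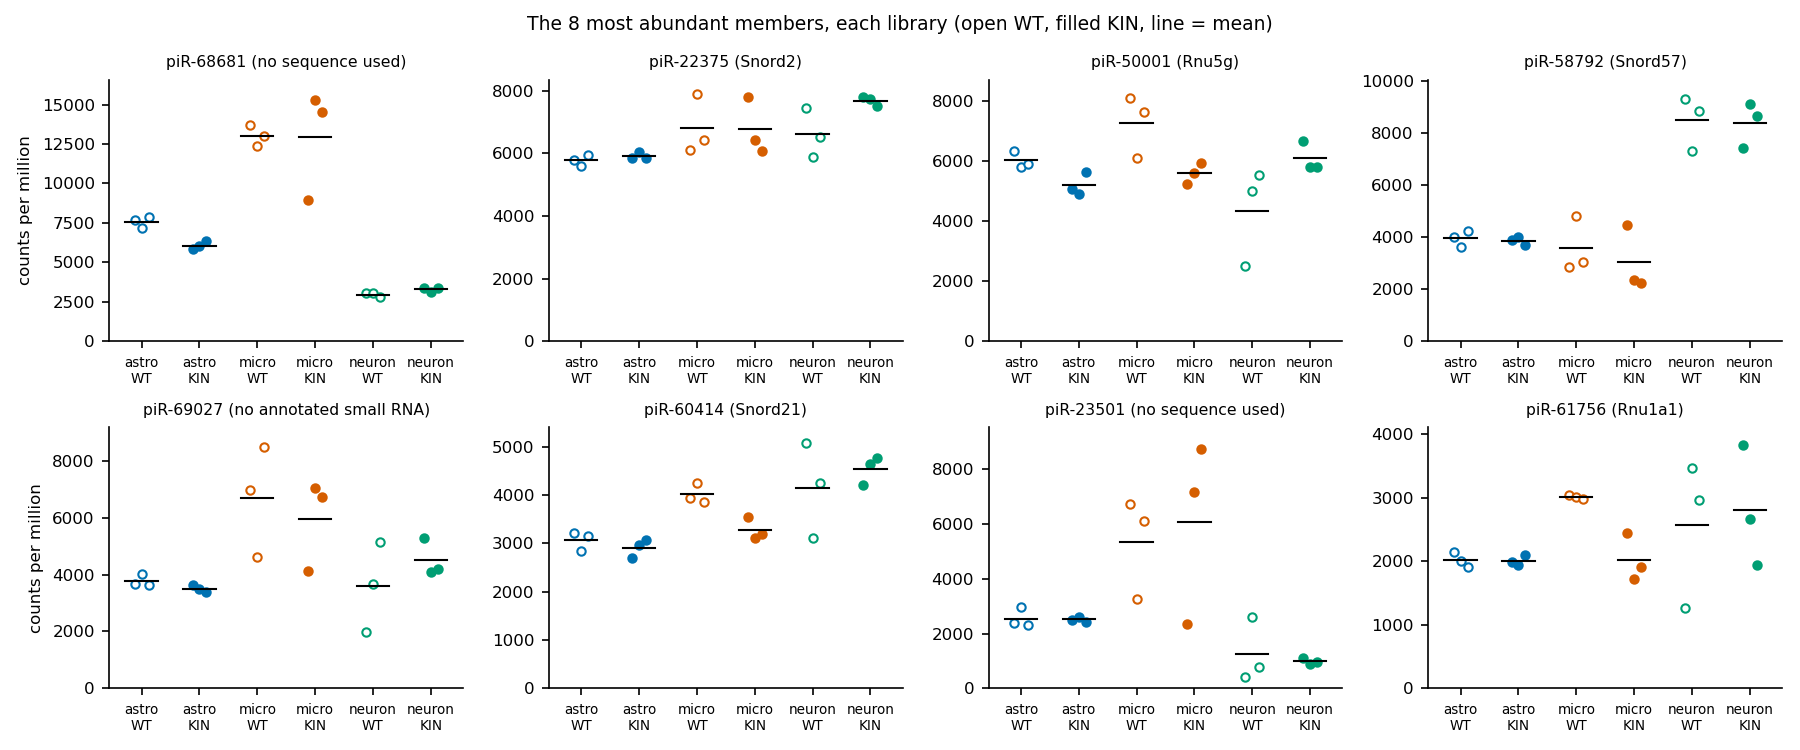
Each panel shows CPM on a linear axis for one of the 8 most abundant piRNA-annotated RNAs, with 3 libraries per group as points (open WT, filled KIN) and the mean as a line. The 32-base mmu-piR-68681 runs from 2810 CPM in neurons to 15300 CPM in microglia, whereas mmu-piR-22375 from Snord2 stays between 5610 and 7910 CPM in all 18 libraries.

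The table also has entries of its own for the host RNAs, and some of them kept a nearly constant ratio to the piRNA entry. The entry of Snord2 held 388988 counts against 360154 for mmu-piR-22375, and in single libraries it was 1.07 to 1.13 times the piRNA entry. For Snord57 and mmu-piR-58792 this ratio was 1.06 to 1.15, and for Snord21 and mmu-piR-60414 it was 0.999 to 1.03. Other pairs differed more, with ratios of 1.5 to 3.03 for Rny1 and mmu-piR-67265, 34.0 to 307 for Snord17 and mmu-piR-11876, and 0.189 to 1.48 for Snord104 and mmu-piR-68131. In the stated procedure a read placed on a piRNA did not go on to the Ensembl transcripts, and whether reads were counted at both entries was not tested. The mature miRNAs held more counts than the piRNA entries identical to them, as with 1015 for mmu-miR-532-3p against 379 for mmu-piR-13530. Where a piRNA entry held the whole miRNA and more, the order went both ways. mmu-miR-138-5p had 3352 counts against 2170 for mmu-piR-68767, and mmu-miR-3470b had 5 against 202 for mmu-piR-58696.

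KIN and WT were compared within each fraction with edgeR's quasi-likelihood test on all features of the table. An RNA was called when its log2 fold change was 1 or more in size and its adjusted p (Benjamini-Hochberg) did not exceed 0.05, with fold changes given as KIN against WT after TMM scaling. In astrocytes, 10 piRNA-annotated RNAs fell and 1 rose in KIN. They were 11 of 111 tested (9.91%), and of all 5694 features tested in astrocytes 8.18% were called, 1.79% higher and 6.39% lower. Of the 11, 3 (mmu-piR-19115, mmu-piR-67320 and mmu-piR-68126) reached 5 counts in WT libraries alone and so entered the comparison through the group where they were high. They are given below without a test, and the remaining calls were 1 higher and 7 lower. The median log2 fold change was −0.50 over the 111 RNAs and −0.18 over all features tested. With DESeq2 size factors in edgeR, 3 were higher and 10 lower (11.7% called, against 9.2% of all features). The RNAs that fell were 6 of 25 without annotated small RNA, 2 of 20 of 31 or 32 bases and 2 of 18 of repeated sequence, while none of the 13 snoRNA, 8 snRNA or 13 rRNA fragments tested was called. These class counts include the 3 RNAs that reached 5 counts in WT alone, mmu-piR-68126 without annotated small RNA and the 2 of repeated sequence. The annotation names no exon of 28S rRNA, so the class without annotated small RNA was not checked against it.

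mmu-piR-25838 had 65.5, 25.9 and 64.4 CPM in WT astrocytes and 19.2, 12.5 and 14.0 in KIN, which gave −1.62 ± 0.34 as the log2 fold change with its SE (n = 3 against 3, adjusted p = 0.0202 by edgeR). mmu-piR-65691, of 31 bases, had 15.3, 6.78 and 12.1 CPM in WT and 3.78, 2.51 and 2.42 in KIN, with −1.82 ± 0.38 (edgeR adjusted p = 0.0201). mmu-piR-58694, of 32 bases, had 19.1, 5.78 and 14.0 CPM in WT and 1.16, 2.23 and 2.15 in KIN, with −2.62 ± 0.49 (edgeR adjusted p = 0.0148). In these 3 RNAs all KIN libraries lay below all WT libraries, and WT replicate 2 was the lowest WT library. mmu-piR-68126, which shares its position with mmu-piR-68125, was near the detection limit with 15, 11 and 13 counts in WT and 4, 3 and 3 in KIN, a fitted log2 change of −1.85 ± 0.45.

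Both repeated sequences that fell in astrocytes were rare. mmu-piR-19115, with 21229 genome copies, had 46, 9 and 19 counts in WT astrocytes and 2, 0 and 4 in KIN, a fitted log2 change of −3.51 ± 0.85. The 6 libraries that brought it into the set were all WT glial libraries. mmu-piR-67320, with 12700 copies, had 9, 5 and 11 counts in WT and 1, 0 and 1 in KIN, so that WT was 12.9 times higher with a counting interval of 3.22 to 112 (95%, exact). All 18 RNAs of this class that were tested had a negative fold change in astrocytes, with a median log2 fold change of −1.48, and their summed level was 133, 42.7 and 102 CPM in WT and 36.1, 26.8 and 29.0 in KIN. WT replicate 2 was thus close to the KIN libraries. The RNAs of this class had a median total of 126 counts, and some entered the set mainly through WT libraries. The sign count and median of the class are therefore a description.

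The RNA that rose was a miRNA by its sequence. mmu-piR-13530 had 3.50, 5.02 and 2.73 CPM in WT astrocytes and 11.1, 9.20 and 8.87 in KIN, a log2 change of 1.47 ± 0.34 (edgeR adjusted p = 0.0287). All KIN libraries lay above all WT libraries. Its identical miRNA, mmu-miR-532-3p, had 1.16 ± 0.28 (edgeR adjusted p = 0.0344) in its own entry. mmu-piR-68767 had 64.6, 76.6 and 73.8 CPM in WT and 127, 108 and 110 in KIN, and its change of 0.81 ± 0.16 (edgeR adjusted p = 0.0173) stayed under the fold threshold, as did the 0.85 ± 0.17 of mmu-miR-138-5p (adjusted p = 0.0167). miRNAs of other cells moved in the same libraries. The oligodendrocyte mmu-miR-219a-2-3p ran from 383 to 605 CPM in WT astrocytes and from 636 to 693 in KIN. The myeloid mmu-miR-142a-3p ran from 7.0 to 9.04 CPM and from 20.4 to 39.6, and mmu-miR-223-3p from 2.54 to 3.34 and from 3.49 to 4.94. The WT and KIN ranges of the other cell-type miRNAs measured overlapped. Among these, the oligodendrocyte mmu-miR-338-3p averaged 636 CPM in WT and 1120 in KIN. The part of these miRNAs in the changes was not tested.

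The number called in astrocytes turned on single libraries. Leaving out WT replicate 2 raised it to 45 of 111 (40.5%), where the share of all features called rose to 28.5%. Leaving out WT replicate 1, WT replicate 3 or any one of the KIN libraries took it to 0, with 0.83 to 1.58% of all features called. All 10 RNAs called lower had WT replicate 2 as the lowest WT library and every KIN library below every WT library, and WT replicate 2 was the lowest in 75 of all 111 tested. Groups without overlap occurred in 35 RNAs with KIN lower and 16 with KIN higher, where all features had 21.5% and 14.8%. The entry of the 18S rRNA itself took 1.87, 1.54 and 1.88% of WT astrocyte libraries and 1.43, 1.34 and 1.28% of KIN ones, so that it moved in the same order, and its part in the result was not tested.

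In microglia, 8 piRNA-annotated RNAs fell and 0 rose in KIN, 8 of 112 tested (7.14%), where 4.35% of all 4940 features tested were called, 1.42% higher and 2.94% lower. The median log2 fold change was −0.51 over the 112 RNAs and −0.11 over all features tested. The RNAs that fell were 3 of 25 without annotated small RNA, 2 of 14 rRNA fragments, 1 of 5 fragments of Y1, 7SL and 7SK RNA, 1 of 8 in miRNA hairpins (mmu-piR-57926, in Mir6236) and 1 of 19 of 31 or 32 bases. None of the snoRNA or snRNA fragments was called. miRNAs of other cells moved in the same libraries. The neuronal mmu-miR-124-3p ran from 37.7 to 100 CPM in WT microglia and from 23.5 to 28.2 in KIN, and the neural mmu-miR-9-5p from 74.0 to 218 and from 52.7 to 62.1, both without overlap. Going the other way, the oligodendrocyte mmu-miR-338-3p ran from 16.7 to 18.0 CPM in WT and from 21.3 to 30.1 in KIN. The erythrocyte mmu-miR-451a likewise ran from 16.4 to 20.5 and from 25.7 to 118. The WT and KIN ranges of mmu-miR-219a-2-3p and the endothelial mmu-miR-126a-3p overlapped. The myeloid mmu-miR-142a-3p averaged 2480 CPM in WT and 4060 in KIN, and the ranges of all 3 myeloid miRNAs measured overlapped. Their part in the falls was not tested. The 18 repeated RNAs tested had a median log2 fold change of −1.59 and 17 of them a negative one, although none was called, and their summed level was 81.5, 29.1 and 85.9 CPM in WT and 18.1, 31.7 and 25.1 in KIN. As in astrocytes, these class values are a description, because some of the RNAs entered the set mainly through WT libraries.

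Among the rRNA fragments, mmu-piR-57305 had 61.1, 33.1 and 57.0 CPM in WT microglia and 17.5, 19.5 and 19.8 in KIN, a log2 change of −1.17 ± 0.25 (edgeR adjusted p = 0.0365). mmu-piR-68887 had 151, 67.4 and 160 CPM in WT and 44.2, 52.1 and 42.8 in KIN, with −1.18 ± 0.28 (edgeR adjusted p = 0.0473), and was not called when counts were scaled to library totals alone. mmu-piR-67881, in 7SL RNA, had 12.7, 7.49 and 9.00 CPM in WT and 3.18, 2.55 and 2.09 in KIN, with −1.66 ± 0.37 (edgeR adjusted p = 0.0401). In each of the 3 RNAs the groups did not overlap.

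Others fell to a similar degree. mmu-piR-68014, with 2 genome copies and no annotated small RNA, had 193, 88.1 and 203 CPM in WT microglia and 59.1, 53.7 and 45.6 in KIN, with −1.34 ± 0.29 (edgeR adjusted p = 0.0359). mmu-piR-67886, of 31 bases, had 131, 74.0 and 131 CPM in WT and 39.4, 43.1 and 40.7 in KIN, with −1.20 ± 0.23 (edgeR adjusted p = 0.0268). In both, WT replicate 2 was the WT library nearest to the KIN values.

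mmu-piR-67239 was the one RNA called in both glial fractions, of 109 tested in both. It had 109, 43.2 and 95 CPM in WT astrocytes and 32.6, 31.8 and 31.7 in KIN, a log2 change of −1.22 ± 0.29 (edgeR adjusted p = 0.0327). In microglia it had 120, 44.0 and 99.8 CPM in WT and 25.7, 20.8 and 27.2 in KIN, with −1.56 ± 0.33 (edgeR adjusted p = 0.0334), a call that was lost when at least 10 counts in 3 libraries were required. In neurons it had 624, 313 and 460 CPM in WT and 366, 360 and 418 in KIN, where the groups overlapped. The fractions came from the same brains per the methods, so the 2 glial calls are not independent of each other.

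In microglia, too, single libraries decided the count, which rose to 39 of 112 (34.8%) when WT replicate 2 was left out, where 19.4% of all features were called, and to 13 (11.6%, against 6.39%) when KIN replicate 1 was. It was 0 when any of the other 4 microglia libraries (WT replicates 1 and 3, KIN replicates 2 and 3) was left out, with 0 to 0.286% of all features called. DESeq2 called 21 (18.8%) and 7.65% of all features. In all 8 RNAs called lower WT replicate 2 was the lowest WT library and every KIN library lay below every WT library, and this replicate was the lowest in 87 of 112 tested. Groups without overlap occurred in 36 RNAs with KIN lower and 9 with KIN higher, where all features had 13.8% and 13.2%. The 18S rRNA entry took 3.38, 1.97 and 3.24% of WT microglia libraries and 1.58, 1.83 and 1.90% of KIN ones, and its part in the result was not tested.

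**Figure D3:**
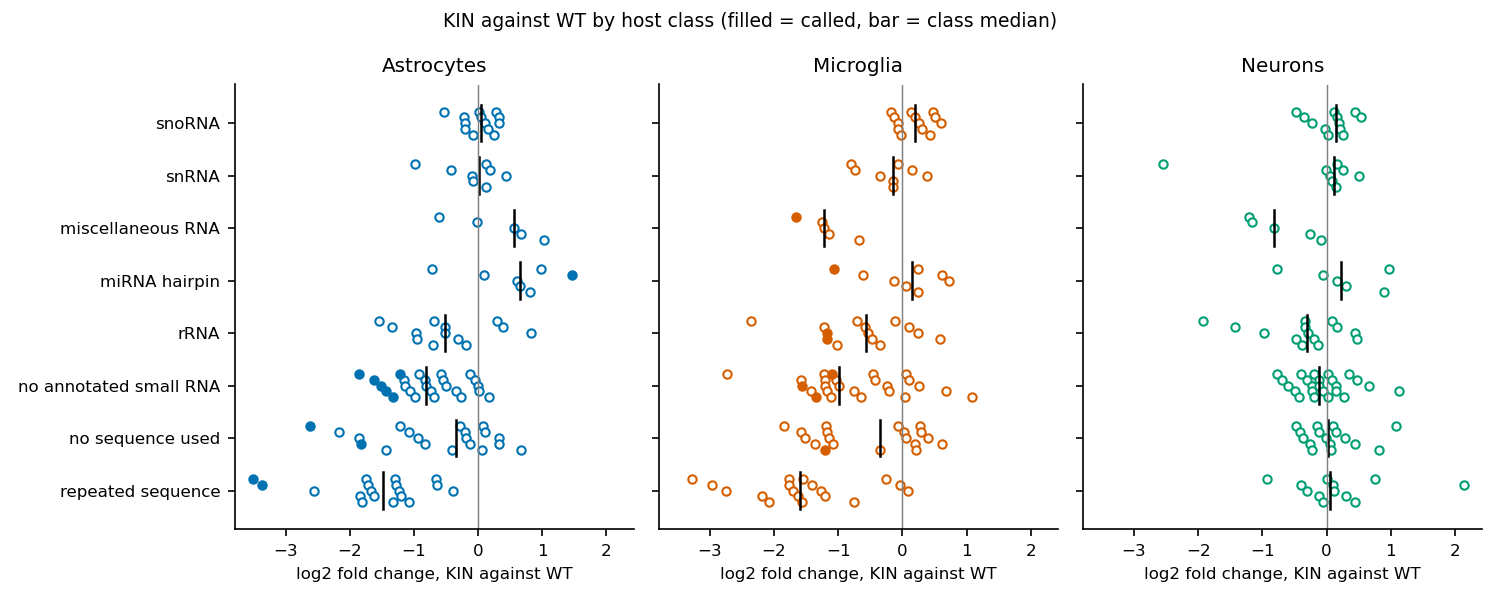
Each point is the log2 fold change (KIN against WT, edgeR) of one tested piRNA-annotated RNA, grouped by the kind of RNA that holds its sequence, with called RNAs filled and class medians as black bars; the RNAs in mt-Te and in a scaRNA are left out. In astrocytes and microglia the repeated sequences have medians of −1.48 and −1.59 while snoRNA fragments have medians of 0.05 and 0.20, and no point is filled in neurons. Some repeated sequences entered the set mainly through WT libraries, so their medians are a description.

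**Figure D4:**
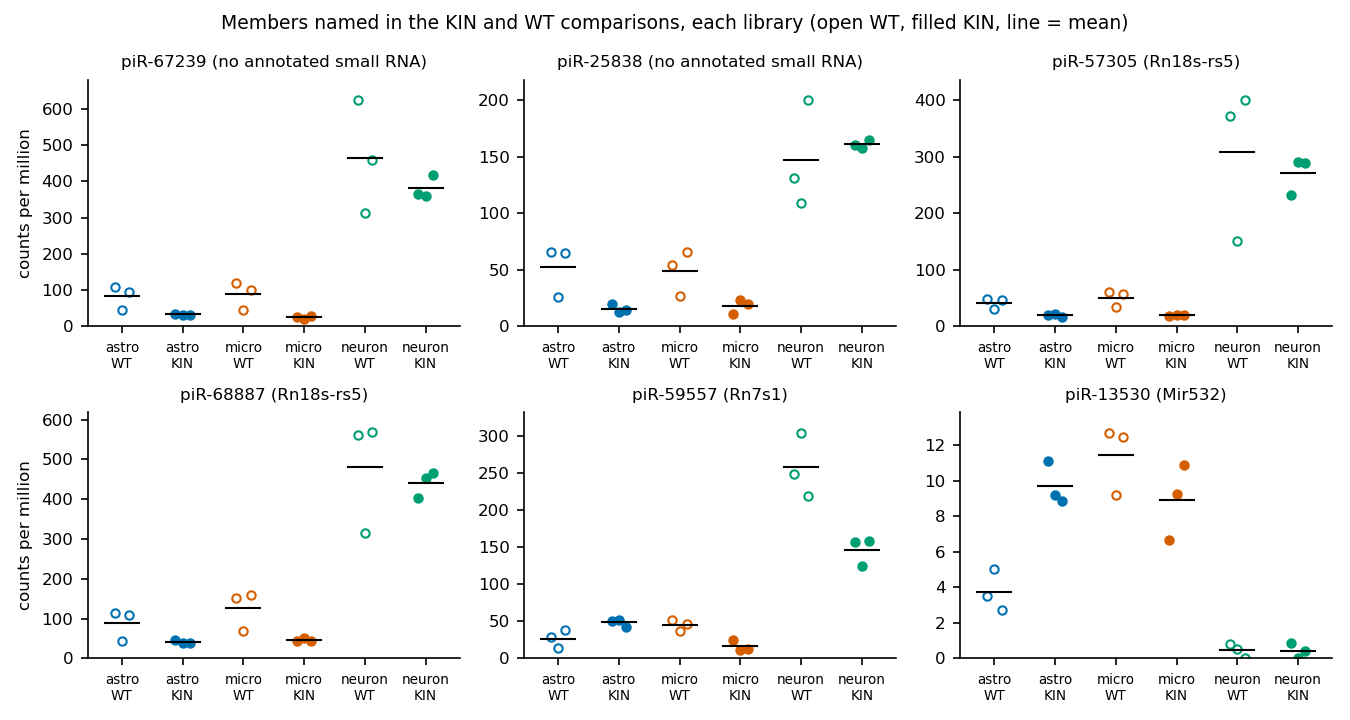
Each panel shows CPM on a linear axis for one RNA in the 6 groups, with 3 libraries per group as points (open WT, filled KIN) and the mean as a line. mmu-piR-67239 lies at 20.8 to 32.6 CPM in all KIN glial libraries and at 43.2 to 120 CPM in the WT ones, and mmu-piR-13530 lies at 8.87 to 11.1 CPM in KIN astrocytes against 2.73 to 5.02 CPM in WT.

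In neurons, 0 of 98 RNAs tested were called by edgeR or by DESeq2, and likewise 0% of all 4535 features tested. Without adjustment, 7 RNAs had a p of 0.05 or less by edgeR and 4 by DESeq2, where 4.34% of all features did by edgeR. The median log2 fold change was −0.01 over the 98 RNAs and −0.11 over all features. The smallest p belonged to mmu-piR-44760, of 7SL RNA, which had 428, 482 and 236 CPM in WT and 182, 141 and 179 in KIN, a log2 change of −1.21 ± 0.34 (edgeR adjusted p = 0.917). mmu-piR-59557, which overlaps it, had 248, 304 and 219 CPM in WT and 156, 125 and 158 in KIN, with −0.82 ± 0.29 (edgeR adjusted p = 0.917). mmu-piR-58696, a sequence with 32234 genome copies, had 1, 1 and 1 counts in WT and 5, 5 and 12 in KIN, 4.78 times higher in KIN with a counting interval of 1.44 to 25.0 (95%, exact). The 7 RNAs above include it, but only KIN libraries reached 5 counts of it, so its difference is given without a test. The neuronal WT libraries were the shallowest, with 1211118 to 1956491 counts, so that changes in rare RNAs were less detectable there.

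The difference between the KIN effects of the glial fractions was tested itself, in a fit of the 12 glial libraries. By edgeR 0 of 114 RNAs were called, where 0.312% of all 7053 features tested were, and 9 reached 0.05 without adjustment, where 10.4% of all features did. DESeq2 called 2 (1.75%, against 1.93% of all features), mmu-piR-59557 and mmu-piR-44760. The lowest p belonged to the 7SL fragment mmu-piR-59557, which had 28.3, 13.3 and 38.0 CPM in WT and 50.9, 51.8 and 42.7 in KIN astrocytes, against 51.8, 36.3 and 45.8 in WT and 24.5, 10.9 and 12.8 in KIN microglia. The KIN effect in microglia minus that in astrocytes was −2.26 ± 0.50 on the log2 scale (edgeR adjusted p = 0.0572). mmu-piR-44760 had 38.8, 24.4 and 41.9 CPM in WT and 52.3, 49.0 and 50.5 in KIN astrocytes, against 58.7, 40.6 and 62.4 in WT and 32.4, 11.1 and 16.8 in KIN microglia, a difference of −1.85 ± 0.47 (edgeR adjusted p = 0.086). In both RNAs the KIN libraries lay above the WT libraries in astrocytes and below them in microglia. In the entry of Rn7s1 itself the KIN effect was 0.10 in astrocytes (edgeR adjusted p = 0.641) and −0.74 in microglia (adjusted p = 0.0533).

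The fractions of WT brains were compared in pairs. Microglia against astrocytes gave 15 calls among 114 RNAs tested (13.2%), 12 higher in microglia and 3 lower, where 31.5% of all 6397 features tested were called, 12.2% higher and 19.3% lower. The share of the RNAs called was thus below that of all features. Of the 15, 3 reached 5 counts in 1 of the fractions alone, as did 966 of the 2016 features called, which leaves 10 higher and 2 lower. The largest fall was that of mmu-piR-67265, the Y1 fragment, which had 2480, 3380 and 2230 CPM in WT astrocytes and 175, 151 and 180 in WT microglia. Its log2 fold change was −3.90 ± 0.24 (edgeR adjusted p = 1.32e-06), and that of the Rny1 entry was −3.27 ± 0.23 (adjusted p = 3.23e-06). In WT neurons it had 213, 2070 and 313 CPM, where replicate 2 stood apart. mmu-piR-68767, the fragment with mmu-miR-138-5p, a miRNA abundant in brain, fell by 3.18 ± 0.40 on the log2 scale in microglia (edgeR adjusted p = 0.000185), from 64.6, 76.6 and 73.8 CPM to 11.8, 2.88 and 8.18. mmu-piR-69017, of 32 bases, had 10, 9 and 13 counts in astrocytes and 1, 3 and 1 in microglia, a fitted log2 change of −2.51 ± 0.64, given without a test because only astrocyte libraries reached 5 counts.

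The RNAs that were higher in microglia included a snoRNA end and the end of 18S rRNA. mmu-piR-11876, the fragment of Snord17, had 22.9, 22.4 and 23.1 CPM in WT astrocytes, 93.9, 108 and 118 in WT microglia and 5.78, 8.18 and 15.7 in WT neurons. Its log2 fold change in microglia against astrocytes was 2.35 ± 0.27, and the Snord17 entry had 2.91 ± 0.18. In neurons against astrocytes the fragment and the entry went apart, with −1.40 for the fragment and 0.74 for Snord17. mmu-piR-67196, at the 3′ end of 18S rRNA, had 181, 243 and 161 CPM in WT astrocytes, 1030, 601 and 1000 in WT microglia and 187, 394 and 359 in WT neurons. It was higher in microglia than in astrocytes by 2.24 ± 0.24 on the log2 scale (edgeR adjusted p = 6.44e-05) and lower in neurons than in microglia, with −1.65 ± 0.36 (edgeR adjusted p = 0.00793). The whole 18S entry rose by 0.78 ± 0.16 in microglia against astrocytes (adjusted p = 0.0035) and by 1.18 ± 0.14 in neurons against astrocytes (adjusted p = 0.0018). mmu-piR-32269, with 285 genome copies, had 3, 2 and 3 counts in astrocytes and 11, 16 and 11 in microglia, a fitted log2 change of 2.30 ± 0.56, given without a test because only microglia libraries reached 5 counts.

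Neurons against astrocytes gave 54 calls among 114 RNAs tested (47.4%), 32 higher in neurons and 22 lower, where 28.7% of all 5916 features tested were called, 10.2% higher and 18.5% lower. Of the 54, 1 called higher and 8 called lower reached 5 counts in 1 of the fractions alone, as did 811 of the 1698 features called, which leaves 31 higher and 14 lower. Called higher were 9 of 14 rRNA fragments, 13 of 25 RNAs without annotated small RNA and 4 of 5 fragments of Y1, 7SL and 7SK RNA. None of the 13 snoRNA fragments was called higher and 4 were called lower, and in the miRNA hairpins 2 were higher (mmu-piR-57926 and mmu-piR-65496, the latter reaching 5 counts in neurons alone) and 4 lower of 8 tested. The median log2 fold change was 1.45 for the rRNA fragments, 3.09 for the Y1, 7SL and 7SK fragments and 0.03 over all 114 RNAs, against −0.50 over all features. Without astrocyte WT replicate 1 the count was 32 (28.6%, against 20.4% of all features), and without WT replicate 3 it was 28 (25.0%, against 18.1%).

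The 7SL fragments were prominent among the rises. mmu-piR-44760 rose by 3.25 ± 0.40 on the log2 scale in neurons against astrocytes (edgeR adjusted p = 0.00182) and by 2.65 ± 0.38 against microglia (adjusted p = 0.00115). mmu-piR-67881, which overlaps it, had 6.68, 1.26 and 4.86 CPM in WT astrocytes and 41.3, 42.9 and 58.3 in WT neurons, a rise of 3.30 ± 0.56 (edgeR adjusted p = 0.00471). All neuronal libraries lay above the glial libraries of the same genotype for both.

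The 22 RNAs called lower in neurons than in astrocytes were 6 of 31 or 32 bases, 4 in miRNA hairpins, 4 snoRNA fragments, 4 repeated sequences, 3 without annotated small RNA and 1 snRNA fragment. These class counts include the 8 RNAs that reached 5 counts in astrocytes alone. The 3 with the largest fall held miRNA or repeated sequence. mmu-piR-7972, with mmu-miR-674-5p and sharing its position with mmu-piR-21129, had 10.5, 16.1 and 11.2 CPM in WT astrocytes and 0, 1.53 and 1.31 in WT neurons, a fitted log2 change of −3.75 ± 0.66. mmu-piR-68767 had 0, 12.8 and 3.27 CPM in WT neurons, with −3.82 ± 0.85 against astrocytes (edgeR adjusted p = 0.0128). mmu-piR-19115 had 74 counts in WT astrocytes and 2 in WT neurons, 16.7 times higher by CPM in astrocytes (counting interval 4.46 to 140, 95%, exact), and its call was lost without WT replicate 1 or 3 of either fraction. Neither mmu-piR-7972 nor mmu-piR-19115 reached 5 counts in a neuronal WT library, so both are given without a test.

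Neurons against microglia gave 45 calls among 113 RNAs tested (39.8%), 22 higher in neurons and 23 lower, where 28% of all 5166 features tested were called, 13.5% higher and 14.5% lower. Of the 45, 1 called higher and 5 called lower reached 5 counts in 1 of the fractions alone, as did 581 of the 1446 features called, which leaves 21 higher and 18 lower. Scaled to library totals alone, 26 were higher and 17 lower (38.1% called, against 25.9% of all features). The class counts that follow include the RNAs that reached 5 counts in 1 fraction alone. Called higher were 8 of the 25 RNAs without annotated small RNA, 5 rRNA fragments and 4 fragments of Y1, 7SL and 7SK RNA, and called lower were 6 of 31 or 32 bases, 5 RNAs in miRNA hairpins, 4 snoRNA fragments, 3 RNAs without annotated small RNA, 2 repeated sequences and 1 each of the rRNA, snRNA and scaRNA fragments. mmu-piR-57926, whose 2 genome copies include the hairpin model Mir6236, had 104, 57.6 and 96.5 CPM in WT microglia and 957, 192 and 717 in WT neurons, a rise of 2.71 ± 0.55 (edgeR adjusted p = 0.00579). The fragments of Mir532 were both lower in neurons. mmu-piR-18450, from the other arm of the hairpin, had 27.6, 23 and 34.6 CPM in WT microglia and 0.826, 3.58 and 2.62 in WT neurons, with −3.68 ± 0.54 (edgeR adjusted p = 0.00121), and mmu-piR-13530 had 122 counts in WT microglia and 2 in WT neurons, 27.0 times higher by CPM in microglia (counting interval 7.31 to 225, 95%, exact), with no neuronal WT library at 5 counts and so without a test. The count of calls was 25 (24%, against 19.5% of all features) without microglia WT replicate 1, 27 (26.2%, against 21.8%) without microglia WT replicate 3 and 28 (24.8%, against 19.3%) without neuronal WT replicate 3.

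One RNA was counted almost only in neurons. mmu-piR-65496, the sequence opposite H2A histone genes, had 11, 14 and 25 counts in WT neurons and 20, 23 and 32 in KIN neurons, which is 7.16 to 16.4 CPM. It had 0 counts in the WT astrocyte libraries and 3 in the WT microglia libraries together. In WT neurons it was at least 37.0-fold higher than in WT astrocytes, taking 3 counts over the group as the floor, and 37.7 times higher than in WT microglia (counting interval 12.2 to 189, 95%, exact). It passed the minimum count through its neuronal libraries alone, so this difference is given without a test, and the interval covers counting error only.

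**Figure D5:**
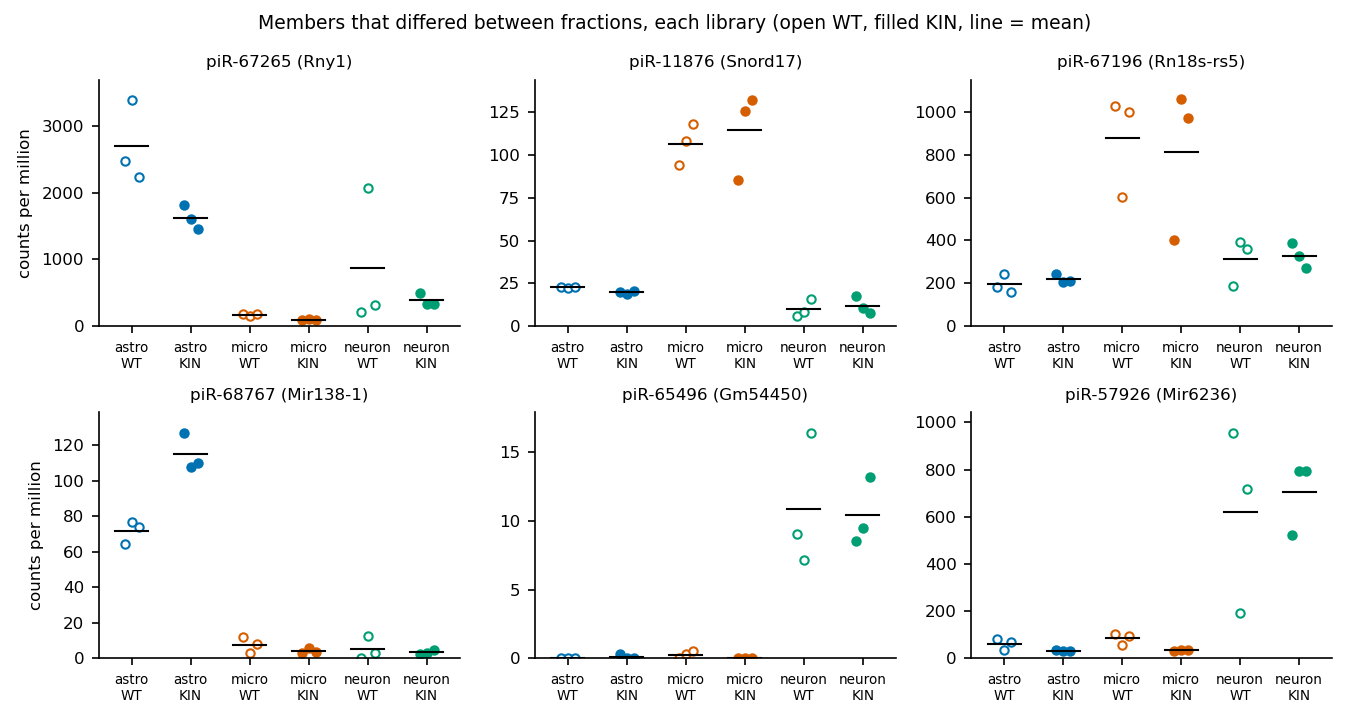
Each panel shows CPM on a linear axis for one RNA in the 6 groups, with 3 libraries per group as points (open WT, filled KIN) and the mean as a line. The Y1 fragment mmu-piR-67265 is highest in astrocytes (1450 to 3380 CPM), the Snord17 fragment mmu-piR-11876 in microglia (85.1 to 132 CPM) and mmu-piR-57926 in neurons (192 to 957 CPM).

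The same fraction pairs were also tested in KIN libraries, which is a separate set of mice. Microglia against astrocytes gave 27 calls in KIN among the 105 RNAs tested in both genotypes, where 35.3% of all 4293 features tested in both were called, and 12 were called in both and in the same direction, which is 80.0% of the WT calls and 44.4% of the KIN calls. Over all features the shared calls were 77.6% of the WT calls and 77.5% of the KIN calls. For neurons against astrocytes KIN gave 57 calls among 105 RNAs, where 44.8% of all features were called, and 43 were shared, 86.0% of the WT calls and 75.4% of the KIN calls, with 78.3% and 57.7% over all features. For neurons against microglia KIN gave 61 calls among 104 RNAs, where 51.8% of all features were called, and 41 were shared, 93.2% and 67.2%, with 90.7% and 54.8% over all features. For instance, mmu-piR-67265 had 1810, 1610 and 1450 CPM in KIN astrocytes and 87.4, 100 and 84.7 in KIN microglia, and mmu-piR-11876 had 19.8, 19.0 and 20.4 CPM in KIN astrocytes and 85.1, 126 and 132 in KIN microglia. The KIN calls and the shared calls were not split by the count filter. They include RNAs that reached 5 counts in 1 fraction alone, such as mmu-piR-65496 in both neuron pairs, so the shared percentages are a description.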

How the data were processed

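Small RNA was sequenced in 18 libraries, grouped by the cell type and genotype in their labels. The authors removed adapters with Cutadapt 4.6 and aligned with Bowtie2 2.4.4 in local mode, round after round (mature miRNAs, tRNAs, piRNAs, Ensembl noncoding and coding transcripts of mm39). In local mode the ends of a read need not match, so longer reads can be placed on a piRNA. HTSeq 2.0.2 counted alignments of any mapping quality on both strands. Quality was followed with FastQC 0.11.9 and MultiQC 1.23. The deposited counts are whole reads per feature, not normalized. Whether molecular identifiers were collapsed is not given in the sources used here, so intervals cover counting error only. Where libraries of 1 group alone reached 5 counts, the interval is no test of a difference. No feature lacked a name. A further 36 columns of per-library values on other scales, and 15 columns of the authors' comparisons (fold changes and p-values from DESeq2), were not used.

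Levels are CPM, counts per 1000000 of the library total. A feature entered a comparison when 2 or more of its libraries held at least 5 counts, and was tested by the edgeR 4.0.16 quasi-likelihood test (R 4.3.3, limma 3.58.1) with TMM, tested beforehand on simulated data, and p-values were adjusted over all features tested. Alternatives were DESeq2 1.42.0 (test, and size factors in edgeR), library totals, other filters, a replicate block, 1 fit of all 18 libraries, overlapping RNAs summed, KIN in place of WT libraries and leaving out each library. Where nothing says that libraries came from separate animals, p-values measure the spread between libraries. Same-numbered libraries deviated together with r of 0.00789 to 0.0749 between KIN and WT astrocytes, −0.237 to 0.188 in microglia and −0.284 to −0.0369 in neurons. Between WT fractions r was 0.106 to 0.313 for neurons and astrocytes, 0.0432 to 0.346 for microglia and astrocytes and 0.00926 to 0.251 for neurons and microglia. By a limit of 0.1 for each pair, only neurons and astrocytes passed with all 3 numbers, and falling short of it does not show that fractions are unpaired. Xist had 5, 47 and 83 counts in KIN replicates 1, 2 and 3 of astrocytes, 4, 44 and 61 of microglia and 5, 56 and 88 of neurons. In WT it had 33, 102 and 25, then 37, 36 and 41, then 12, 50 and 12. The fraction tests were unpaired, with the replicate block as an alternative. The methods state that the fractions come in sequence from single brains.

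Sequences, as the table gives them, were matched to GRCm39 (the build of mm39) and to small RNA exons of GENCODE vM39, requiring 90% of the sequence inside the exon and at most 2 mismatches, and 100 genome copies made a repeated sequence. These limits were set after counts and sequences were seen. The RNAs named are the 8 most abundant, up to 6 in each direction for each genotype comparison (3 with the smallest p where fewer than 2 were called), 3 in each direction for each pair of fractions, and 2 for the interaction. One RNA that this rule names is not reported here, and sequences are printed for a part of the named RNAs. mmu-piR-67239 in astrocytes, mmu-piR-57926 in the microglia comparison of genotypes, mmu-piR-68131, mmu-piR-1660 and mmu-piR-67808 were named after their values were seen. The RNAs and the lists of miRNAs and pathway genes were chosen with earlier results of these data known.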

Additional observations from a re-analysis of the deposited data

Results flagged for a closer look

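In 3 RNAs the KIN libraries all lay above the WT libraries in astrocytes and all lay below them in microglia. How many of all features did so was not counted, so this number does not show whether the RNAs are unusual. The effect of KIN in microglia minus that in astrocytes was −2.26 ± 0.50 on the log2 scale for mmu-piR-59557 (unadjusted p = 0.000297, edgeR adjusted p = 0.0572). It was −1.85 ± 0.47 for mmu-piR-44760 (unadjusted p = 0.000953, edgeR adjusted p = 0.086), which overlaps mmu-piR-59557 in 7SL RNA, so that the 2 values share reads or molecules of one locus. For mmu-piR-67808, in 7SK RNA with 18 genome copies, it was −1.85 ± 0.52 (unadjusted p = 0.00251, edgeR adjusted p = 0.132), with log2 fold changes of 0.56 in astrocytes and −1.25 in microglia. None of the 3 passed the threshold by edgeR with TMM scaling and the filter described.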

How the results depend on the processing

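The counts of called RNAs in the glial KIN comparisons depended on the processing. In astrocytes (11 called) library totals gave 17 (15.3%, against 8.34% of all features) and the replicate block 22 (19.8%, against 12.1%). The fit of all 18 libraries gave 3 (2.61%, against 1.94%). Leaving out each library in turn gave 0 to 45 (0 to 40.5%, against 0.83 to 28.5%). In microglia (8 called) DESeq2 gave 21 (18.8%, against 7.65% of all features) and no filter 22 (19.1%, against 0.796%). The replicate block gave 0 (against 0.992%) and the fit of all 18 libraries 15 (13.0%, against 4.07%). Leaving out each library gave 0 to 39 (0 to 34.8%, against 0 to 19.4%). The labels do not say whether the replicate numbers pair these libraries. In neurons (0 called) the count was 0 to 1 when libraries were left out, and 1 (mmu-piR-1660, in the snRNA Rnu4atac) only without WT replicate 1 (1.03%, against 1.19% of all features). For WT microglia against astrocytes (15 called) KIN libraries gave 27 (25.7%, against 35.3% of all features), and leaving out libraries 13 to 19 (11.4 to 16.7%, against 25.0 to 34.0%). For neurons against astrocytes (54) and against microglia (45) leaving out libraries gave 28 to 62 and 25 to 51, and the replicate block 60 and 49. For the interaction (0 called) library totals gave 1 (0.877%, against 0.751% of all features), DESeq2 2 (1.75%, against 1.93%) and no filter 3 (2.61%, against 0.14%). A filter of 10 counts in 3 libraries gave 1 (0.935%, against 1.76%) and the replicate block 2 (1.75%, against 0.865%). Leaving out libraries gave 0 to 3 (0 to 2.63%, against 0 to 5.17%). The first 5 of these settings called mmu-piR-59557, with mmu-piR-44760 in 3 of them and mmu-piR-67808 in 1. In these cases the cause was not tested. With library totals the RNAs' median on the log2 scale went from −0.50 to −0.63 in astrocytes and from −0.51 to −0.76 in microglia, and DESeq2 size factors to −0.43 and −0.47. No named RNA changed direction under any alternative run. Of the values of named RNAs under alternatives other than leaving out a library, 7 of 47 lost the call in astrocytes and 11 of 42 in microglia. Leaving out 1 library lost the call in 35 of 42 values in astrocytes and 24 of 36 in microglia. The shares of the library were within 1 SD when all piRNA entries were summed. Depth limits the rare RNAs most, above all in neurons.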
